A study of Mus musculus with 4 samples.

Results

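The genes described here are 10 genes of MHC class II antigen presentation, namely H2-Aa, H2-Ab1, H2-Eb1, H2-DMa, H2-DMb1, H2-DMb2, H2-Oa, H2-Ob, Cd74 and Ciita, out of 21887 protein-coding genes of the RefSeq annotation of GRCm38.p6 (mm10). They were chosen by name as a pathway, with earlier results of these data known. Their counts and ranks beside all genes are therefore descriptions only. For each gene, the peaks of H3K27ac, a histone H3 acetylation found at active promoters and enhancers, were collected over its span and 10 kb on either side. The BN1 cells were CD45.2+ marrow cells of the C57BL/6 mouse strain whose genotype label is cKit(+) BRD9-NUTM1, a fusion of a chromatin remodelling subunit with NUTM1, a p300-binding protein normally made in testis. The control cells were CD45.2+ C57BL/6 marrow cells whose genotype label is cKit(+). The labels give no animal age, and they do not say how the fusion was introduced or how many animals were pooled. Chromatin was collected by fanChIP, a native chromatin immunoprecipitation, with 1 library for each group. The differences below therefore have no replicate error, and no test was possible.

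The labels need care. The BN1 sample's list names its peaks BM and the control sample's list names its peaks BRNU, the reverse of what the sample titles lead one to look for, and the extraction text mentions BN1 cells for every sample. The lists are therefore called "labelled BN1" and "labelled control", and every direction holds for the labels alone. The list labelled BN1 held 19148 peaks over 19.1 Mb and the list labelled control held 28343 peaks over 31.0 Mb, so the list labelled control covered 1.62 times the length. Read depth is unknown, and a gene without a peak is one without a called region, not one shown to lack acetylation. Kit (cKit of the labels), Gata2 and Mpo, 3 of 7 genes listed as progenitor markers, had no peak within 10 kb in either list. The other 4 (Cd34, Ptprc, Flt3 and Cd48) had a region labelled control, and all of these but Cd34 had one labelled BN1.

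MHC class II molecules show peptides from endosomes to CD4+ T cells, and B cells, dendritic cells and activated macrophages are the blood cells known for making them. The H2-Aa and H2-Ab1 chains form the I-A molecule and H2-Eb1 encodes the beta chain of I-E, which C57BL/6 mice do not display because their alpha chain gene for it is defective. Cd74, the invariant chain, fills the groove during assembly, the H2-DM proteins exchange its remnant for peptide, and the H2-O proteins hold H2-DM back. Transcription of the classical class II genes, Cd74 and the H2-DM genes is known to rest on Ciita, a coactivator that does not bind DNA itself but docks on a platform of the RFX complex at the X box and NF-Y at the Y box, a CCAAT sequence, a short way before the start.

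The promoter letters are shown because this platform is known for the classical class II genes, Cd74 and the H2-DM genes, which are among the genes compared. RefSeq promoter windows of GRCm38.p6 (300 bases, of which 250 lie before the start and 50 after it) matched 7 of the 10 genes; H2-Ab1, Cd74 and Ciita had no entry. The 150 bases before the start are printed for the 6 genes whose window held an X box form a short way before the Y box, 5′ to 3′ on the gene's own strand. H2-DMa, neither of whose windows held this arrangement, is not printed. Capitals mark the Y box core (CCAAT, read as ATTGG on the other strand) and the X box forms, a longer one (AAC, any 2 bases, then ATGATG) and a shorter one (GCAAC), which overlap each other in H2-Eb1 and H2-Ob.
H2-Ob (chr17:34238755-34238904, plus strand): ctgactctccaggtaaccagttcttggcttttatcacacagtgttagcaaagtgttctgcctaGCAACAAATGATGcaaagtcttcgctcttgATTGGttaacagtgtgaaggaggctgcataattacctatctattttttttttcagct
H2-Eb1 (chr17:34305717-34305866, plus strand): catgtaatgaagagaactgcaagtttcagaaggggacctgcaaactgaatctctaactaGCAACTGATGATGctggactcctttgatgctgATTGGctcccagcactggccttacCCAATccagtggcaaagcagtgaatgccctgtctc
H2-DMb2 (chr17:34145099-34145248, plus strand): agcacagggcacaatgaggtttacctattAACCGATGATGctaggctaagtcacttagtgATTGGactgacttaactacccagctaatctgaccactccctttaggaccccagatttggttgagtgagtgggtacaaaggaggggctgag
H2-DMb1 (chr17:34153041-34153190, plus strand): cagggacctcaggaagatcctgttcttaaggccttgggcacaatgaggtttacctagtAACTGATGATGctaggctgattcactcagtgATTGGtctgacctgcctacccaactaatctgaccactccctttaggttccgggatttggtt
H2-Aa (chr17:34287824-34287973, minus strand): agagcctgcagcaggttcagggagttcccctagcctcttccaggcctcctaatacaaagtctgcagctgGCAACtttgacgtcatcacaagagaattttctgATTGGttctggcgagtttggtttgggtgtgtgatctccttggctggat
H2-Oa (chr17:34092229-34092378, plus strand): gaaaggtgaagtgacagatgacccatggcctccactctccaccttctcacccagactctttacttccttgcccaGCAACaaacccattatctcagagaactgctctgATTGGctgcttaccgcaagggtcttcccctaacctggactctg

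In these 6 promoters, printed for that reason, the letters AAC of the X box form preceded ATTGG on the gene's strand by 28 to 31 bases. Among all 32851 RefSeq promoter windows, 33 (0.100%) held such an arrangement, those of the 6 genes included. Its X box forms and spacing were set after the letters of the members had been read, so the share is a description only. Both strands searched, CCAAT was present in 37.4% of all windows and in windows of all 7 matched genes, and the X box core GCAACNG was present in 12.7% of all windows and, among the members, in H2-Eb1 only. The longer form was present in 45 of all windows (0.137%), 4 of them those of H2-Ob, H2-Eb1, H2-DMb1 and H2-DMb2, and GCAAC was present in 35.2%. H2-DMa has 2 windows, and CCAAT lay only in the one at its later start. The printed stretches of H2-Ob and H2-Eb1 lay wholly under a peak labelled BN1 and outside every peak labelled control, and those of the other 4 genes lay under no peak of either list.

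Across the 10 genes, acetylated length was greater in the list labelled BN1 at 9 and greater in the list labelled control at H2-DMa alone. Counted over the union of the 10 windows (281 kb), the list labelled BN1 had 24 peaks and 26506 bp, and the list labelled control had 10 peaks and 11069 bp. A length at least 2-fold greater, or a region in 1 list only, was found labelled BN1 at 6 genes (H2-Aa, H2-Ab1, H2-Eb1, H2-Ob, Cd74 and H2-DMb2) and labelled control at none. Among the 12755 protein-coding genes with at least 500 bp in either list, all 10 members included, the same size of difference was found labelled BN1 at 9.17% and labelled control at 32.6%. Any excess labelled BN1 was found at 29.3% of the 13606 genes that had any region, whose median difference, BN1 minus control, was -457 bp against 1522 bp for the members. Scaled to bp per Mb of covered length, 8 of the 10 members were at least 2-fold longer labelled BN1 and none labelled control, beside 18% of all genes labelled BN1 and 20.9% labelled control. On that scale all 10 members were longer labelled BN1, as 58.2% of genes with a region were.

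**Figure D1:**
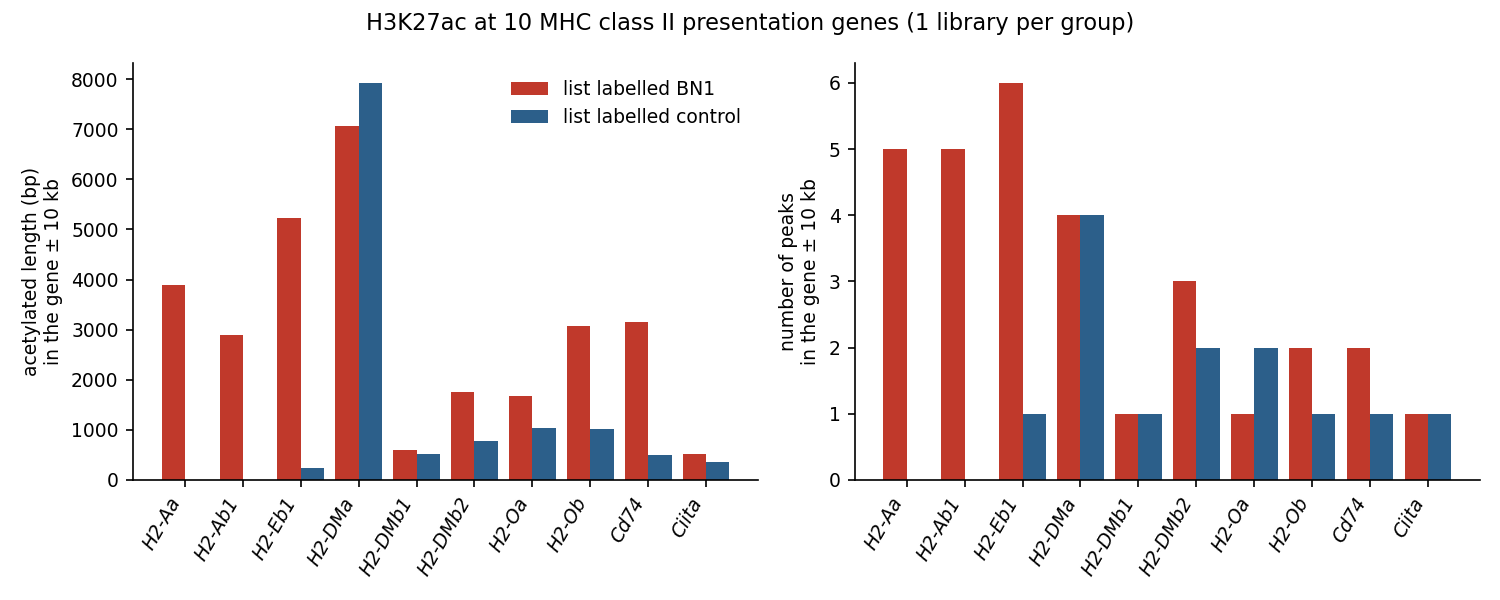
Acetylated length in bp (left) and number of peaks (right) within each gene and 10 kb on either side, for the list labelled BN1 (red) and the list labelled control (blue), 1 library each, without error bars. H2-Aa and H2-Ab1 have bars in red only (3897 and 2893 bp), and H2-DMa is the only gene whose blue length bar is the higher (7068 bp labelled BN1, 7927 bp labelled control).

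**Figure D2:**
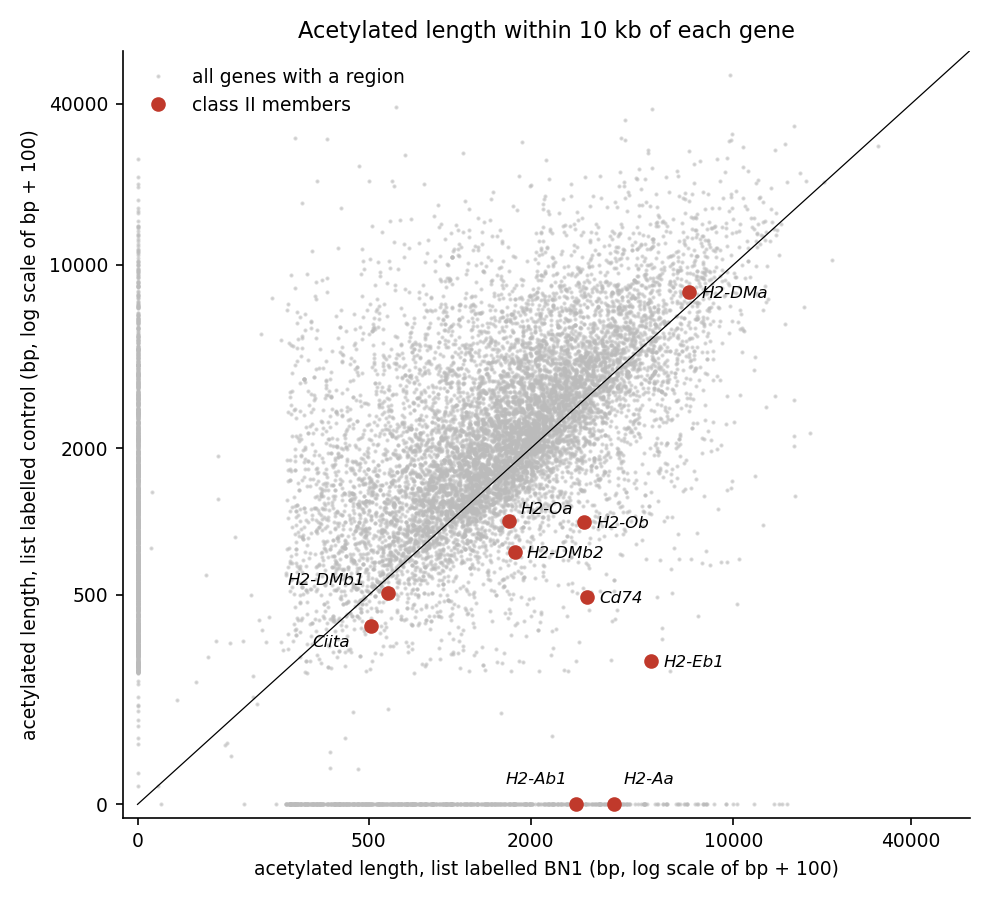
Acetylated length within 10 kb of each of 13606 genes, in the list labelled BN1 (x axis) and the list labelled control (y axis), in bp on a log scale of bp + 100, with the diagonal of equal length. The class II genes (red) lie below the diagonal except H2-DMa, and H2-Aa and H2-Ab1 lie at 0 on the y axis.

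With all peaks and flanks of 10 kb, the classical chain genes H2-Eb1, H2-Aa and H2-Ab1 had the greatest differences in bp among the members. This order depended on the setting, since H2-Ob had the greatest (2853 bp) with peaks of a −log10 q of at least 10 or with the 10000 strongest peaks per list, and Cd74 (2661 bp) without flanks. H2-Aa had 3897 bp in 5 peaks labelled BN1 and no called region labelled control. H2-Ab1 had 2893 bp in 5 peaks labelled BN1 and no called region labelled control. H2-Eb1 had 5222 bp in 6 peaks labelled BN1, against 242 bp in 1 peak labelled control, a 21.6-fold ratio of lengths. Of the 6 peaks, 1 (chr17:34325788-34326378, 591 bp) lay over H2-Eb2, whose 598 bp labelled control fell outside the H2-Eb1 window. Inside H2-Eb1 itself, the lengths were 796 bp labelled BN1 and 242 bp labelled control. By the difference in bp, H2-Eb1 ranked 112, H2-Aa 198 and H2-Ab1 356 among the 13606 genes. These are neighbours, and 2 peaks lay in the windows of both H2-Aa and H2-Eb1, so their lengths are not separate observations.

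At the gene ends, H2-Aa, H2-Ab1 and H2-Eb1 each had a peak within 1000 bp labelled BN1 and none labelled control, a pattern that 3.23% of the 21887 genes showed. End regions in both lists were present at 4 members (H2-DMa, H2-DMb2, H2-Ob and Cd74) and at 38.4% of all genes. The peak at H2-Aa (chr17:34286530-34287815, GRCm38) covered 1286 bp just inside the gene, with its summit 690 bp after the start, and covered 42 of the 300 bases of the promoter window. The peak at H2-Eb1 (chr17:34304364-34306662) was 2299 bp wide, covered the whole promoter window and had its summit 162 bp after the start. H2-Ab1 held 2 peaks inside the gene near its lower end (chr17:34263242-34264124 and chr17:34264506-34265535), with a fold enrichment over the caller's background of 5.87 and 8.06. The single peak labelled control at H2-Eb1 (chr17:34309671-34309912) lay 3904 bp after the start, and it overlapped no peak labelled BN1.

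Between H2-Aa and H2-Eb1, an interval of 18043 bp without a protein-coding gene, the list labelled BN1 had 7 peaks, the last of which ran into H2-Eb1. They covered 5466 bp, or 30.3% of the interval, and the list labelled control had no peak there. The longest interval without a peak labelled control in the class II stretch ran over 69.2 kb (chr17:34240459-34309670) and holds H2-Ab1 and H2-Aa whole. It held 11574 bp labelled BN1, in 14 peaks wholly inside it and the upper end of the main H2-Ob peak. The 14 peaks were not among the strong ones of their list. Their fold enrichment ran between 2.96 and 8.70, and by −log10 q the best of them stood 44.8% down the list and the weakest 98.8%. With peaks of a −log10 q of at least 10 alone, the difference, BN1 minus control, was 1739 bp at H2-Aa, 1913 bp at H2-Ab1 and 332 bp at H2-Eb1. Kept to the 10000 strongest peaks per list, it was 453 bp at H2-Aa, 1030 bp at H2-Ab1 and 332 bp at H2-Eb1.

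**Figure D3:**
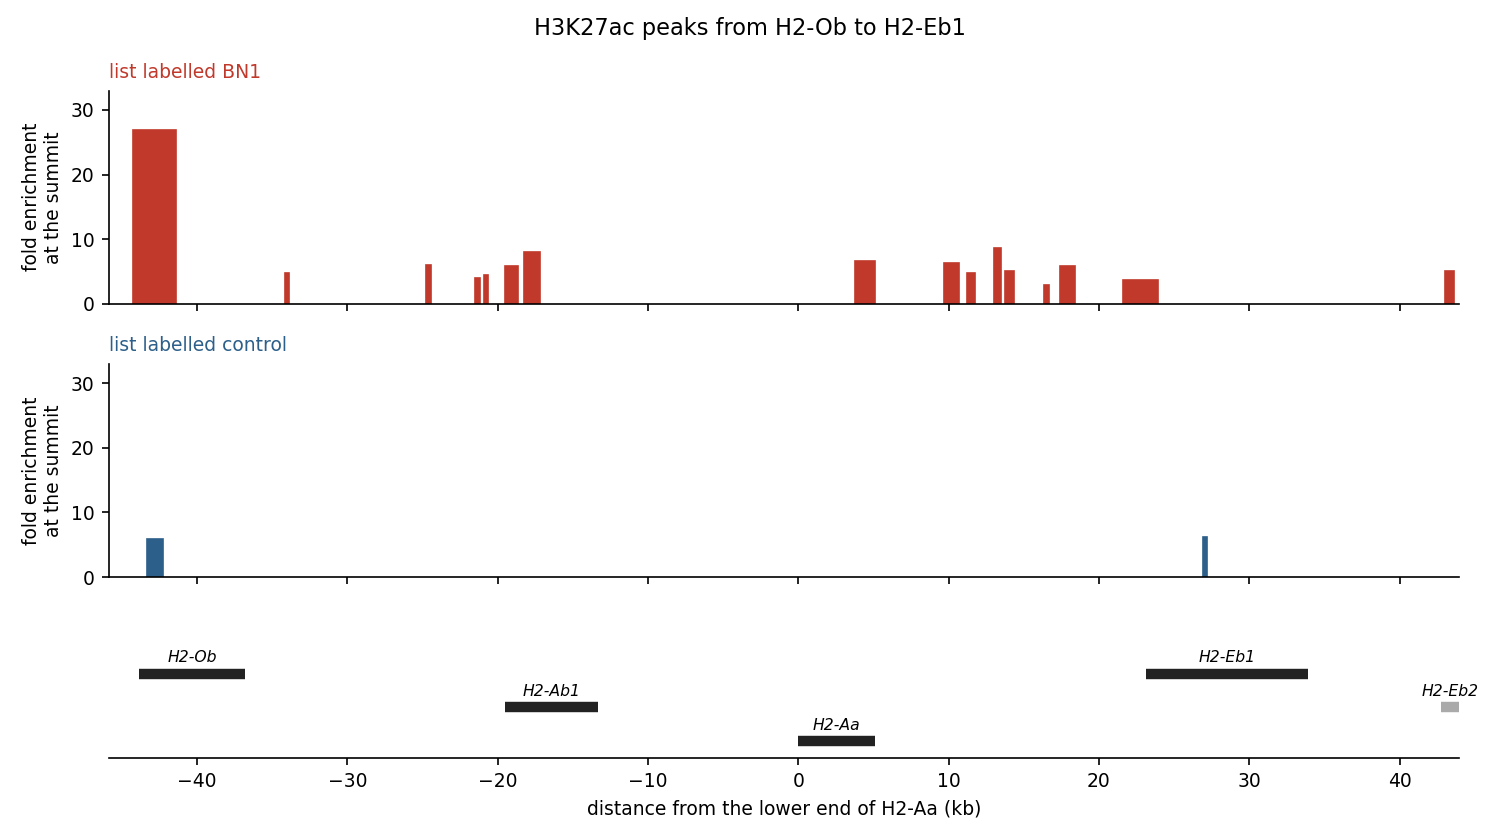
Peaks between H2-Ob and H2-Eb1 in the list labelled BN1 (upper) and the list labelled control (middle), drawn to scale as bars whose height is the authors' fold enrichment at the summit, with member genes in black and another gene in grey (lower), against the distance in kb from the lower end of H2-Aa. Peak heights belong to each list and are not comparable between lists. Peaks labelled BN1 stand over H2-Ab1, H2-Aa and the interval up to H2-Eb1, where the middle row is empty over 69.2 kb.

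Cd74, the invariant chain gene on chromosome 18, had a region in both lists. It had 3150 bp in 2 peaks labelled BN1, against 489 bp in 1 peak labelled control, a 6.44-fold ratio, and ranked 400 of 13606 genes by the difference in bp. All of that length lay within the gene (chr18:60803849-60812652). The wider peak labelled BN1 (1720 bp, fold enrichment 8.12) contained the whole of the peak labelled control (489 bp, fold enrichment 5.08), and the other peak labelled BN1 (1430 bp) overlapped no peak labelled control. With a flank of 50 kb the difference at Cd74 turned to -5659 bp.

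Ciita, the class II coactivator, had little called acetylation in either list. A single peak of 509 bp labelled BN1 (chr16:10488245-10488753, fold enrichment 5.22) lay inside the gene, and a single peak of 360 bp labelled control (chr16:10475647-10476006, fold enrichment 3.87) lay outside it, below the lower end of the span (chr16:10480014-10531064). The peaks did not overlap, and neither lay within 1000 bp of an end of the gene. Both were weak within their lists, 71.9% down the list labelled BN1 and 88.7% down the list labelled control by −log10 q. With a flank of 50 kb the difference, BN1 minus control, was -360 bp, against 149 bp with 10 kb.

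The genes of the H2-O chains were unlike each other. H2-Ob had 3076 bp in 2 peaks labelled BN1, against 1019 bp in 1 peak labelled control (3.02-fold). Its main peak labelled BN1 (chr17:34238516-34241368) was 2853 bp wide, spanned the promoter window and contained the whole of the peak labelled control (chr17:34239440-34240458). Its fold enrichment, 26.9, was the highest of any class II peak of its list, where it stood 10.4% down by −log10 q, while the peak labelled control, with 5.90, stood 60.2% down its own list. The summit lay 535 bp after the start labelled BN1 and 1233 bp after it labelled control.

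H2-Oa had 1671 bp labelled BN1 and 1032 bp labelled control, a ratio of 1.62. All of the length labelled BN1 belonged to 1 peak outside the gene (chr17:34101635-34103305, fold enrichment 21.0), between H2-Oa and Brd2. A peak labelled control (chr17:34101691-34102481, fold enrichment 7.41) lay wholly within it, and their summits were at positions 34101805 and 34101804. Inside H2-Oa itself the list labelled BN1 had no peak and the list labelled control had 1 of 241 bp. H2-Oa was thus the only member with a peak at an end labelled control only, as 6.62% of all genes had, and without flanks its difference was -241 bp.

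Of the members, H2-DMa and H2-DMb1 had the ratios of length in bp nearest to 1, at 0.892 and 1.17 (BN1 over control), and H2-DMb2 was further from it. H2-DMa had 7068 bp labelled BN1 and 7927 bp labelled control, in 4 peaks each. Its earlier start lies beside that of Brd2, a bromodomain protein gene expressed in most cells and read from the other strand, and peaks over Brd2 gave 5313 bp labelled BN1 and 7158 bp labelled control. The widest of these measured 5313 bp labelled BN1 and 6729 bp labelled control, and covered the whole of the promoter window at the earlier H2-DMa start. Labelled control, it had the highest fold enrichment of any peak in the member windows, 29.8, and the next highest, near H2-Oa, was 7.41. Without peaks over Brd2, 1755 bp in 3 peaks labelled BN1 and 769 bp in 2 peaks labelled control were left. These are the same peaks as in the window of H2-DMb2. However, 1 of those labelled BN1 (chr17:34135620-34136335, 716 bp, fold enrichment 9.14) lay inside H2-DMa and overlapped no peak labelled control. Per Mb of covered length, the H2-DMa difference was 114 bp.

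H2-DMb2 had 1755 bp labelled BN1 and 769 bp labelled control (2.28-fold). The peak of 716 bp inside H2-DMa is counted there too. Without flanks, H2-DMb2 had a difference of 87 bp. Within 1000 bp of its lower end lay 1 peak labelled BN1 and 2 peaks labelled control, 1 of which overlapped the peak labelled BN1 over 260 bp. At the start that RefSeq gives for the promoter, further into the span, the list labelled BN1 had a peak of 596 bp with its summit 160 bp after the start, and the nearest summit labelled control lay at -1951 bp from it. H2-DMb1 had no peak inside the gene or within 1000 bp of an end in either list, and its 596 bp labelled BN1 and 509 bp labelled control are the same peaks as those in H2-DMb2. The promoter windows of this gene pair were identical at 84.2% of 247 aligned bases. Whether reads of one gene were placed on the other was not tested.

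**Figure D4:**
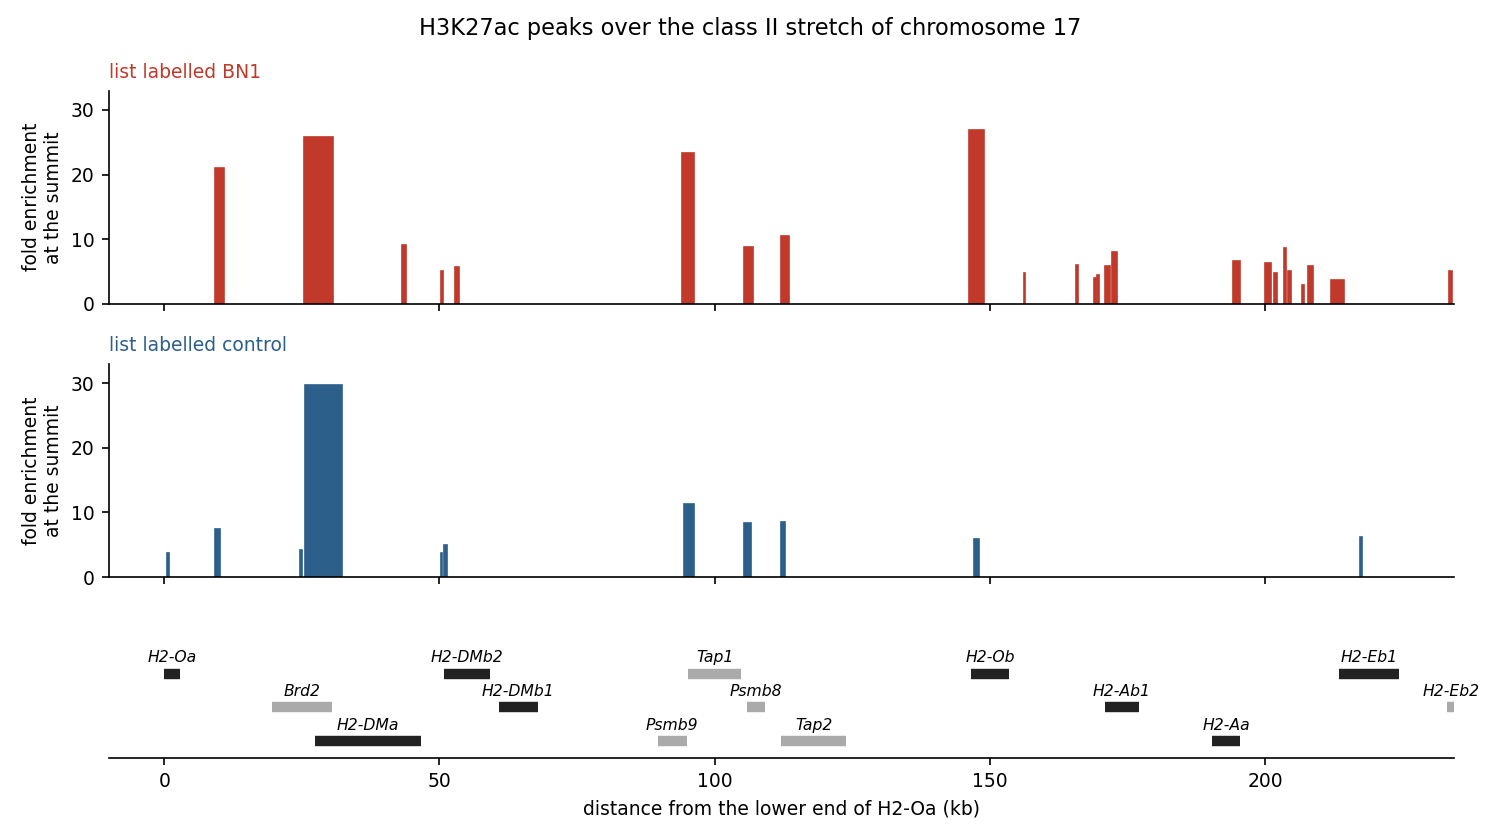
Peaks over the class II stretch of chromosome 17 in the list labelled BN1 (upper) and the list labelled control (middle), as bars drawn to scale whose height is the authors' fold enrichment at the summit within each list, with members in black and other genes in grey (lower), against the distance in kb from the lower end of H2-Oa. Both lists have peaks around Brd2 and from Psmb9 to Tap2, and right of H2-Ob there are 15 peaks labelled BN1 and 1 labelled control.

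Seen as a map, most of the difference in bp lay at one end of the class II stretch. From 10 kb before H2-Oa to 10 kb after H2-Eb1 (chr17:34082379-34326674) the list labelled BN1 had 24 peaks with 28144 bp and the list labelled control had 11 peaks with 14060 bp, and 10980 bp were covered by both. From H2-Oa to the end of H2-DMb1, the lists covered 8739 bp labelled BN1 and 8959 bp labelled control. Of these, 5313 bp labelled BN1 and 7158 bp labelled control lay in peaks over Brd2. Per Mb of covered length, this part had 457 bp labelled BN1 and 289 bp labelled control. From 1 kb before H2-Ob to the end of H2-Eb1, they covered 13517 bp in 15 peaks labelled BN1 and 1261 bp in 2 peaks labelled control, a 10.7-fold ratio. Between these parts lie Psmb9, Tap1, Psmb8 and Tap2, genes of the class I pathway that cut peptides or carry them into the endoplasmic reticulum, and there each of 3 peaks labelled BN1 (5297 bp) overlapped 1 of 3 peaks labelled control (3840 bp). H2-Eb2, a class II gene at the edge of the stretch, had 591 bp labelled BN1 and 598 bp labelled control within 1000 bp of the gene, in peaks that did not overlap.

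Fewer of the member peaks labelled BN1 were shared than of that whole list, counting any overlap of at least 1 bp, which did not hold for the member peaks labelled control. Of the 24 peaks labelled BN1, 5 (20.8%, exact binomial 95% interval 7.13 to 42.2) overlapped a peak labelled control, beside 62.6% of the whole list. Of the 10 peaks labelled control, 5 (50%, interval 18.7 to 81.3) overlapped a peak labelled BN1, beside 41.2% of the whole list. The intervals cover counting error only, and peaks of 1 locus are not independent. The shared peaks lay near H2-Oa, over Brd2 and the start of H2-DMa, before H2-DMb2, and in H2-Ob and Cd74. In the 2 lists, 3 of the 24 peaks labelled BN1 and 1 of the 10 labelled control stood in the upper 25% of their own list by −log10 q.

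Of 15 regulators of class II transcription, 4 were at least 2-fold longer labelled BN1 and none labelled control, beside 9.17% of all genes labelled BN1 and 32.6% labelled control, and their median difference was 249 bp. The 4 were Spib, an ETS factor of B cells and plasmacytoid dendritic cells (9064 bp labelled BN1, 695 bp labelled control), the B cell factors Ebf1 (5757 bp labelled BN1) and Pax5 (5751 bp labelled BN1), and Irf4, a lymphoid and dendritic cell factor (2377 bp labelled BN1). The last 3 had no called region labelled control. Per Mb, 6 of the 15 were at least 2-fold longer labelled BN1 and none labelled control, beside 18% and 20.9% of all genes. The 15 include the member Ciita. The subunits of the promoter platform stayed within 2-fold. Their ratios, BN1 over control, were 1.09 at Rfx5, 1.11 at Rfxap and 1.20 at Rfxank of the RFX complex, and 0.801 at Nfya, 1.19 at Nfyb and 0.842 at Nfyc of NF-Y.

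Genes that process class II antigens had a median difference of -2374 bp, beside -457 bp over all genes with a region. Of 12 genes, 2 were at least 2-fold longer labelled BN1 and 8 labelled control, beside 9.17% of all genes labelled BN1 and 32.6% labelled control. The 2 were Cd74 and Cd83, a surface protein that stabilises class II molecules. The endosomal proteases led, with 933 bp labelled BN1 and 13851 bp labelled control at Ctsb (cathepsin B), 3990 bp labelled BN1 and 16511 bp labelled control at Ctsd (cathepsin D), and 813 bp labelled BN1 and 8388 bp labelled control at Ctss (cathepsin S, which trims the invariant chain). Ifi30, the thiol reductase of endosomes, had 2284 bp labelled BN1 and 7143 bp labelled control. Per Mb, 6 of the 12 were at least 2-fold longer labelled control, beside 20.9% of all genes.

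Class I presentation genes, which every nucleated cell uses, had end regions in both lists at all 12 genes, beside 38.4% of all genes. None of the 12 was 2-fold longer in either list, beside 9.17% of all genes labelled BN1 and 32.6% labelled control. Their median difference was 249 bp, beside -457 bp over all genes with a region. The largest differences were at Calr, the chaperone calreticulin (5135 bp labelled BN1, 3292 bp labelled control), B2m, the common light chain (2629 bp labelled BN1, 4111 bp labelled control), Tap1 (5297 bp labelled BN1, 3840 bp labelled control) and Tap2 (3085 bp labelled BN1, 1891 bp labelled control). Per Mb, 4 of the 12 were at least 2-fold longer labelled BN1, beside 18% of all genes.

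**Figure D5:**
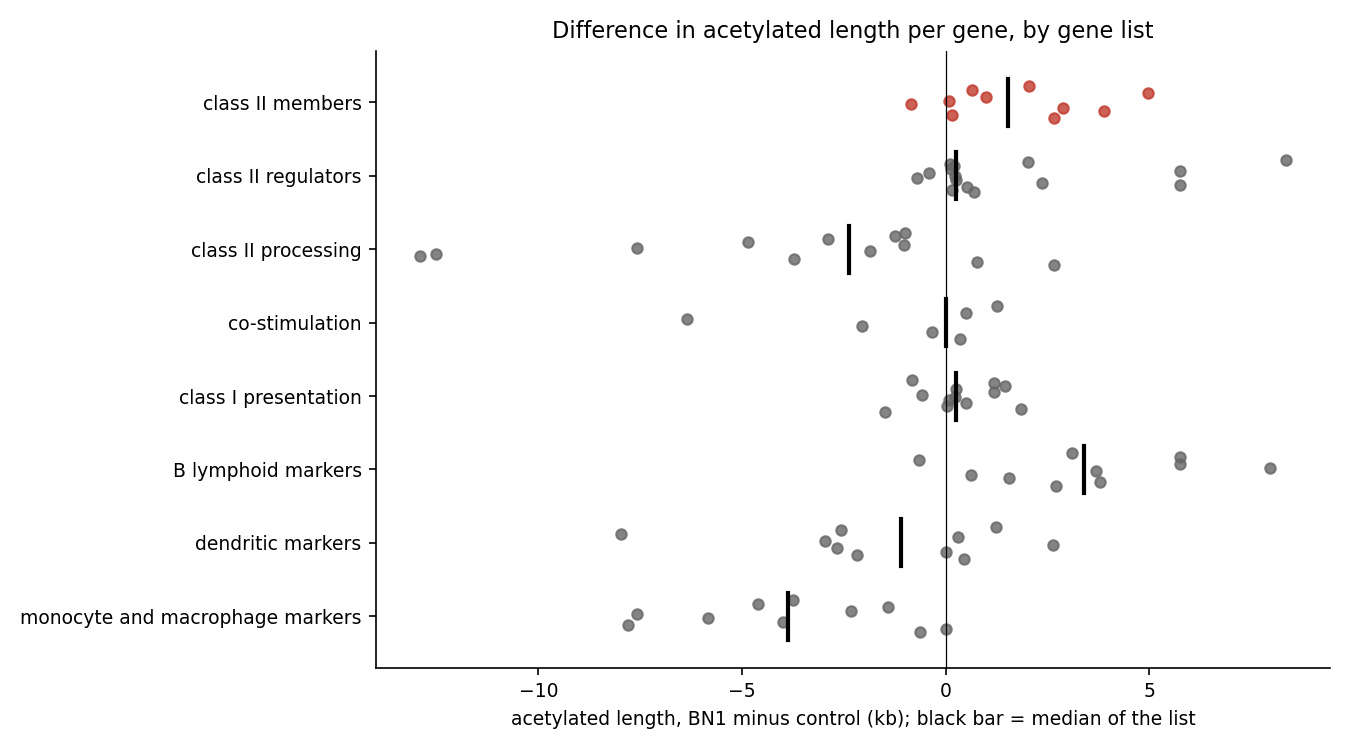
Difference in acetylated length, BN1 minus control, in kb for each gene (points) of 8 gene lists, with the list median as a black bar, from 1 library per group. The class II members (red) have a median of 1522 bp, the B lymphoid markers lie mostly right of 0, and the class II processing genes and monocyte and macrophage markers lie mostly left of it.

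Among markers of blood cells, the counts below stand beside 9.17% of all genes at least 2-fold longer labelled BN1 and 32.6% labelled control. Pax5 and Ebf1 stand both among them and among the regulators above, as Ctss does for the processing genes and Flt3 for the progenitor and dendritic cell markers. Of 10 B lymphoid markers, 8 were at least 2-fold longer labelled BN1 and 1, Ms4a1, labelled control, with a summed length of 39038 bp (0 to 7975 bp per gene) labelled BN1 and 4716 bp (0 to 2081 bp) labelled control. Cd79b, Blk, Vpreb3, Pax5 and Ebf1 were among those at 0 labelled control, and Ms4a1 was at 0 labelled BN1. Of 10 monocyte and macrophage markers, none was 2-fold longer labelled BN1 and 8 were labelled control, with 10763 bp (0 to 5810 bp) labelled BN1 and 48642 bp (0 to 9799 bp) labelled control. Adgre1 and Cx3cr1 were among those at 0 labelled BN1, and Ccr2 was at 0 in both lists. The shares of all genes are over genes with at least 500 bp in either list, as a call requires. That length was reached by 10 B lymphoid, 9 monocyte and macrophage, 7 dendritic cell and 4 progenitor markers. Of 10 dendritic cell markers, 1 was longer labelled BN1 and 5 labelled control, with 18923 bp (0 to 4448 bp) labelled BN1 and 32667 bp (0 to 11334 bp) labelled control; Clec9a was at 0 labelled BN1, Batf3 and Siglech at 0 labelled control and Cd209a at 0 in both. Of the 7 genes listed as progenitor markers, 1 was longer labelled BN1 and 2 labelled control, and Cd34 was at 0 labelled BN1. Their summed lengths were 8331 bp (0 to 3987 bp) labelled BN1 and 12323 bp (0 to 6634 bp) labelled control. Among them, Ptprc (2958 bp labelled BN1, 6634 bp labelled control) and Cd48 (1386 bp labelled BN1, 2747 bp labelled control) are not particular to progenitors. The part of cell composition in the class II differences was not tested, and in bulk chromatin a different share of cells and a different acetylation per cell cannot be told apart.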

How the data were processed

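The authors deposited 1 narrowPeak list per ChIP library, and the lists have no header line. Per the submitters' processing notes, which state neither role nor order, the build was mm10 (GRCm38) and the tools included MACS3 3.0.1, deepTools 3.5.1, Picard 3.2.0 and Bowtie2 2.5.4. The threshold is not given in the sources used here, nor is any input subtraction or pooling. The deposited columns hold the authors' fold enrichment as a linear ratio at the summit of a peak, the −log10 of its p-value and q-value, a summit position and a score that equals 10 times the −log10 q within 1 unit. These are values within a list and were used to describe or rank its peaks. The 2 input libraries were not analysed here.

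Groups follow the sample titles. Covered bp and peaks were counted over each RefSeq GRCm38.p6 protein-coding gene and 10 kb on either side (Python 3.11.15, numpy 2.4.6, pandas 2.3.3), and the interval arithmetic was tested on simulated data. Gene ends were within 1000 bp, a 2-fold call needed at least 500 bp in either list, and binomial intervals are exact (scipy 1.17.1). The RefSeq table of genes gives no strand, which was taken from the promoter windows. With 1 library per group, no p-value was computed. The 10 members, all protein-coding genes of the chromosome 17 stretch, the largest differences of each list and the strongest and widest peaks were to be named; other peaks and genes were described after their values were seen. Members and lists were chosen with earlier results of these data known. Alternatives covered stricter −log10 q minimums, equal and shortened lists, flanks, scaling, overlap, gene end distance and fold. Some listed genes are not reported here by name.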

Additional observations from a re-analysis of the deposited data

How the results depend on the processing

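The count of members at least 2-fold longer labelled BN1 stayed between 4 (flank of 50 kb, or 4-fold) and 9 (lists of equal length), with none labelled control under any alternative run. The share of all genes at least as much longer labelled BN1 moved too, and was 5.65% at 4-fold, 7.98% with 50 kb, 12% with equal lists and 18.9% with the top 10000, where 5 members were longer. No paired analysis was possible because each group has 1 library. Summed lengths and counts that moved by over 1.5 times (shares of peaks, outside their interval) were as follows. Over all member windows, the difference, BN1 minus control, was 8405 bp when −log10 q had to reach 10, 7027 bp with the top 10000 peaks, 7284 bp without flanks and 9251 bp with 50 kb; over the chromosome 17 stretch it was 8142 bp when −log10 q had to reach 10 and 7920 bp with the top 10000. Member peaks labelled BN1 numbered 9 when −log10 q had to reach 10, 7 with the top 10000 and 11 without flanks, and those labelled control 6 when −log10 q had to reach 5, 2 at 10, 4 with equal lists, 1 with the top 10000, 6 without flanks and 35 with 50 kb; shared peaks were then 100% of those labelled control at 10 and with the top 10000. Members with a peak at an end numbered 3 labelled BN1 with the top 10000, and labelled control 1 when −log10 q had to reach 10, 2 with equal lists, 1 with the top 10000 and 2 within 500 bp. Of the processing genes, 1 was longer labelled BN1 when −log10 q had to reach 5 or 10, with the top 10000 and with 50 kb. Of the co-stimulation genes, 2 were longer labelled BN1 with equal lists, the top 10000 and per Mb and 0 with 50 kb, and 2 labelled control at 10, without flanks and with 50 kb. Of the class I genes, 2 were longer labelled BN1 with the top 10000, 1 without flanks, 1 with 50 kb and 4 per Mb. Among regulators 1 was longer labelled control with 50 kb. Of the differences at single members, 29 moved by over 1.5 times or to 0. Of the 9 members longer labelled BN1, 2 lost the difference altogether, H2-DMb1 (0 bp when −log10 q had to reach 10, with the top 10000 and without flanks) and Ciita (0 bp when −log10 q had to reach 10 and with the top 10000). With 50 kb, where windows take in each other's peaks, the differences grew to 12256 bp at H2-Ab1, 12249 bp at H2-Aa, 11976 bp at H2-Eb1 and 9103 bp at H2-Ob, and without flanks that of H2-DMb2 was 87 bp. Differences that changed sign were those of H2-DMa (339 bp with equal lists, 43 bp with 50 kb, 114 bp per Mb), H2-Oa (-241 bp without flanks, -816 bp with 50 kb), Ciita (-360 bp with 50 kb) and Cd74 (-5659 bp with 50 kb). Apart from the alternatives' own construction (fewer peaks kept, other windows), the cause was not tested. H2-Aa, H2-Ab1, H2-Eb1, H2-Ob and H2-DMb2 kept a positive difference under all 7 alternatives of length. Depth is unknown, so weak regions may be missing from either list.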

Other observations

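Genes of T cell co-stimulation, which antigen-presenting cells display beside class II molecules, did not share 1 direction. Of 6 genes, 5 had at least 500 bp in either list. At least 2-fold, Pdcd1lg2, a ligand of the inhibitory receptor PD-1, was longer labelled BN1 (1266 bp labelled BN1, 0 bp labelled control). Cd86, a ligand of CD28, was longer labelled control (1477 bp labelled BN1, 7835 bp labelled control). Among all genes, 9.17% were at least 2-fold longer labelled BN1 and 32.6% labelled control. Cd80, another ligand of CD28, had 2116 bp labelled BN1 and 4176 bp labelled control, and Icosl had 996 bp labelled BN1 and 502 bp labelled control. Cd40, the receptor for T cell help, had no called region labelled BN1 and 342 bp labelled control, and the median difference of the list was 1 bp.

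Nlrc5, the class I counterpart of Ciita, had 3931 bp in 5 peaks labelled BN1 and 3696 bp in 4 peaks labelled control, with an end region in both lists. Of 10 housekeeping genes, 9 stayed within 2-fold, beside 7426 of the 12755 genes with at least 500 bp in either list. Gapdh was longer labelled control (1495 bp labelled BN1, 6201 bp labelled control). The list median was -1034 bp, beside -457 bp over all genes with a region.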
